A study of Mus musculus with 6 samples.

Results

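The Satb1 promoter was used as the bait of a 4C-seq experiment in mouse double-positive (DP) thymocytes and embryonic stem (ES) cells, and its distant contacts on the centromeric side of chromosome 17 are described here. Members are the DpnII fragments of chromosome 17 (mm9) whose midpoint lies below 46.962 Mb, that is more than 5 Mb from the bait at position 51962000, with the stretch from 33.5 to 37.5 Mb left out. This position rule gave 99978 of the 229546 fragments listed for the chromosome, and it used no measured value. Each cell type has 1 library, so that every comparison below is between 2 libraries. Intervals are 95% exact (Clopper-Pearson) binomial intervals, or log (Katz) intervals for ratios of shares, and cover counting error only. The DP cells were CD4+/CD8+ cells sorted by FACS from the thymus of c57/Bl6 mice aged 4 weeks. The ES cells were the J1 line, of strain 129S4/SvJae, grown on irradiated feeder cells and then passaged without them. Both were fixed in 2% formaldehyde for 10 min, while the study's methods give the DP nuclei a stronger SDS treatment than the sample labels do. Cell type, strain and preparation cannot be told apart here, and no RNA was measured in these libraries, so that the labelled cell types could not be checked against marker genes.

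Satb1 encodes a nuclear protein that binds AT-rich DNA, organises chromatin loops and is needed for normal T cell development; the study describes the gene as highly expressed in DP thymocytes and silent in ES cells. In 4C, chromatin is crosslinked, cut with a first enzyme and ligated, so that fragments close to the bait in the nucleus become joined to it. Those partners are then amplified with primers in the bait and sequenced. Most contacts lie close to the bait, while contacts over many megabases are rare and are known to reflect the chromosome territory and the segregation of gene-rich, active chromatin from gene-poor, inactive chromatin.

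Fragments of 5 contacts show what was counted. The first 3 were chosen by rule, as the most strongly supported fragment of 60 to 300 bp with reads in both libraries in each 1 Mb bin high in both. They lie in an intron of Supt3h (chr17:45046069-45046199; 23 reads in DP and 253 in ES), in an intron of Runx2 (chr17:44799470-44799580; 42 and 46 reads), and 4.43 kb from Vegfa (chr17:46149474-46149555; 30 and 66 reads). The other 2, added after the values were seen, have the most reads among members of that size with a unique end in the strongest bin of each class high in only one cell type. They lie in an intron of Arid1b (chr17:5043517-5043770; 786 reads in DP and 0 in ES) and 16.4 kb from Cyp39a1 (chr17:43904658-43904913; 0 reads in DP and 651 in ES). All are from the mm9 sequence, plus strand, and every end has a 26-base sequence found at no other DpnII end of the genome. Capitals mark the DpnII sites (GATC) that close the fragment and the Csp6I sites (GTAC) within it.
Supt3h intron: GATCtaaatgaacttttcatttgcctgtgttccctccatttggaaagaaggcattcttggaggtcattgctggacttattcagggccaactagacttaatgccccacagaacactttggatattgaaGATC
Runx2 intron: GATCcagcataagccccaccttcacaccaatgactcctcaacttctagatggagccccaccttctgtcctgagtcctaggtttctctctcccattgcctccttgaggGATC
Near Vegfa: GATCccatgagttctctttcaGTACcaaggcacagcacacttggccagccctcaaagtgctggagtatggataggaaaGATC
Arid1b intron: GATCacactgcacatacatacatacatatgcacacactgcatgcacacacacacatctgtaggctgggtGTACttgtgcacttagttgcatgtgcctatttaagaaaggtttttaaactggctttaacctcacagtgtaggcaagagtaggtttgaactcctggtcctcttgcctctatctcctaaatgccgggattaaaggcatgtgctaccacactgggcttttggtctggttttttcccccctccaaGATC
Near Cyp39a1: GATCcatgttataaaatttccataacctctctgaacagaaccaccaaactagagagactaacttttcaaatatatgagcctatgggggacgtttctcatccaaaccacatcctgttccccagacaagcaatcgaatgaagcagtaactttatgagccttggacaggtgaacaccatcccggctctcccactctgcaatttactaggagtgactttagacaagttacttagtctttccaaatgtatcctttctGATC

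The Satb1 libraries held 1997083 reads (DP) and 1847598 reads (ES) on chromosome 17. The members took 142194 reads in DP, 7.12% of that library, and 127491 reads in ES, 6.90%. A member with at least 1 read is called detected below, because PCR copies of a ligation raise its reads but not the number of fragments hit. A detected member had a median of 26 reads in DP and 24 in ES, and 15.6% and 9.77% of the detected members had a single read.

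Over the whole centromeric side, 1056 members were detected in DP, a share of 1.06% (interval 0.994 to 1.12), and 1321 in ES, a share of 1.32% (1.251 to 1.39). The share was thus higher in ES by 1.251 times (1.15 to 1.36). Over the whole chromosome, with 5510 fragments detected in DP and 9924 in ES, this ratio was 1.80 (1.74 to 1.86). The ES excess on the centromeric side was thus smaller than that of the library as a whole. By reads in place of fragments the order turned: the mean of capped reads per fragment in ES was 0.865 of that in DP. The excess of detected fragments in ES was not spread evenly. Between 37.5 and 46.962 Mb, the near stretch, 286 of 24814 members were detected in DP (1.15%, 1.02 to 1.29) and 682 in ES (2.75%, 2.55 to 2.96), a ratio of ES to DP of 2.38 (2.08 to 2.73). Below 33.5 Mb, the far stretch, 770 of 75164 were detected in DP (1.02%, 0.954 to 1.10) and 639 in ES (0.850%, 0.786 to 0.918), a ratio of 0.830 (0.748 to 0.921). In ES the near stretch thus had 3.23 times (2.91 to 3.60) the share of the far stretch, while in DP the factor was 1.13 (0.983 to 1.29), whose interval includes equal shares.

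The telomeric side of the chromosome, beyond 5 Mb from the same bait, gives a yardstick. In DP its share was 1.01%, or 0.958 (0.878 to 1.05) of the centromeric share. In ES it was 2.97%, or 2.25 times (2.10 to 2.40) the centromeric share. At 5 to 10 Mb the centromeric side exceeded the telomeric side in both libraries, with 1.79% (1.56 to 2.04) against 0.690% (0.553 to 0.851) in DP and 3.50% (3.19 to 3.84) against 2.86% (2.57 to 3.16) in ES. At 10 to 14 Mb it was lower than the telomeric side in both, with 0.520% against 0.821% in DP and 1.97% against 3.91% in ES. Farther out the ES share on the centromeric side went from 1.13% at 19 to 25 Mb to 0.614% at 43 to 49 Mb. The DP share did not follow distance in this way: it was 1.499% at 19 to 25 Mb, 0.632% at 30 to 35 Mb and 1.2495% at 43 to 49 Mb.

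To compare the shape of the profiles, the members were placed in 41 bins of 1 Mb, and the detected share of each bin was divided by the share of the same library over the whole centromeric side. This scaled share is 1 for an average bin, and a bin is called high at 1.5 or more. A bin is high in only one cell type when its scaled share there is also at least 1.5 times that in the other. Scaled shares ranged from 0.364 to 3.14 in DP and from 0.139 to 3.36 in ES. Of the 41 bins, 3 were high in both libraries (7.32%), 5 in DP only (12.2%) and 5 in ES only (12.2%), and 28 were in none of these classes. Just inside the threshold lay 8 to 9 Mb and 31 to 32 Mb in DP, both at 1.51. Also close were 46 to 46.962 Mb in DP, at 1.62, and 41 to 42 Mb in ES, at 1.66. The next bins below the threshold were 24 to 25 Mb in DP, at 1.44, and 39 to 40 Mb in ES, at 1.13, so that no ES bin lay close under it.

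**Figure D1:**
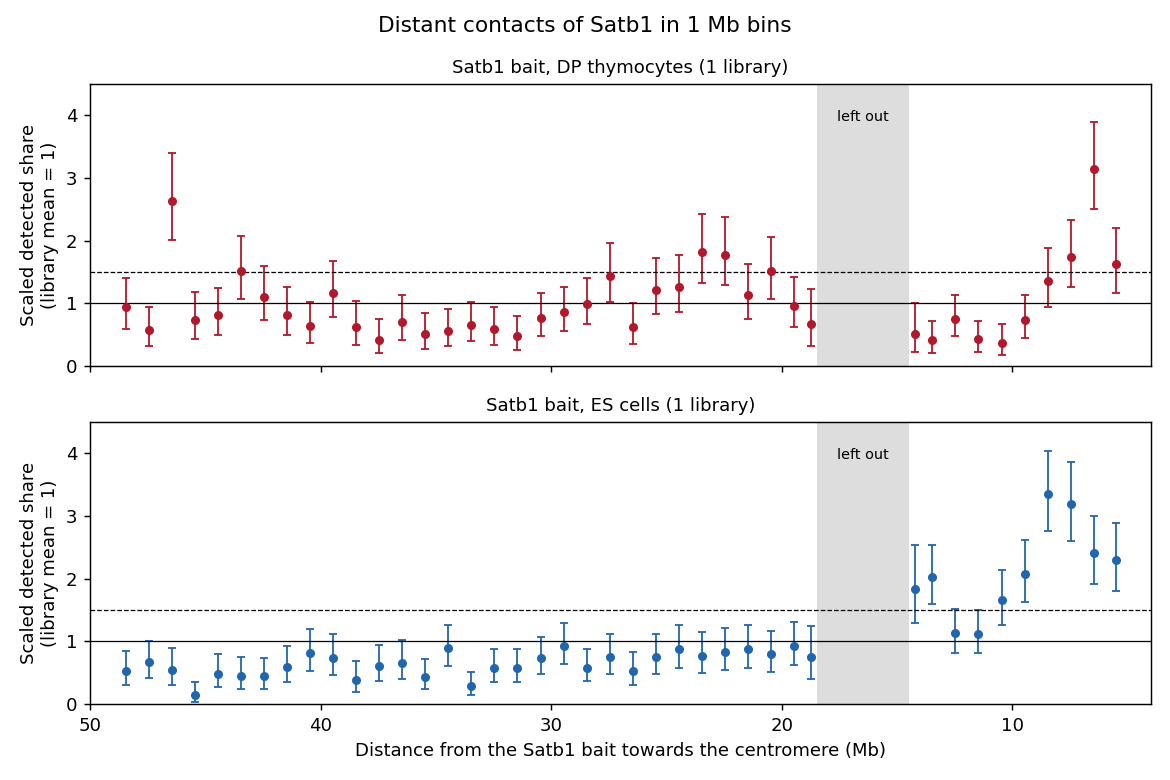
Scaled detected share of each 1 Mb bin (points, with 95% binomial intervals) against distance from the Satb1 bait in Mb, in DP thymocytes (top) and ES cells (bottom); the solid line marks the library mean, the dashed line the threshold of 1.5, and the grey band the stretch left out. High ES bins all lie within 15 Mb of the bait, while high DP bins lie both near it and beyond 20 Mb, the farthest at 46.5 Mb with a scaled share of 2.63.

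The bins high in both libraries adjoin each other and form the part of the centromeric side that is closest to the bait. At 45 to 46 Mb, 81 of 2442 members were detected in DP (3.32%) and 78 in ES (3.19%). Scaled to each library, this was 3.14 in DP (2.50 to 3.89), the highest bin of that profile, and 2.42 in ES (1.92 to 3.005), the third highest; the intervals overlap. At 44 to 45 Mb, 44 of 2400 members were detected in DP (scaled share 1.74, 1.26 to 2.32) and 101 in ES (3.19, 2.60 to 3.85), without overlap of the intervals. At 46 to 46.962 Mb, 40 of 2333 members were detected in DP (1.62, 1.16 to 2.20) and 71 in ES (2.30, 1.81 to 2.89). These 3 bins held 15.6% of all detected members in DP and 18.9% in ES, on 7.18% of the members.

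Proximity to the bait is shared by the bins on the other side, and set against those the libraries differed. The telomeric bin at the distance of 45 to 46 Mb had 12 of 2722 fragments detected in DP (0.441%, 0.228 to 0.769) and 74 in ES (2.72%, 2.14 to 3.40). The whole telomeric side beyond 5 Mb had 1.01% in DP and 2.97% in ES, so that the DP partner was low for its side. The centromeric bin was thus 7.52 times (4.11 to 13.8) as high as its telomeric partner in DP and 1.18 times (0.859 to 1.61) in ES. At 44 to 45 Mb the ratio was 3.40 (1.83 to 6.29) in DP and 1.252 (0.940 to 1.67) in ES, and at 46 to 46.962 Mb it was 1.46 (0.918 to 2.33) and 0.847 (0.626 to 1.15). Scaled to the share expected at its distance from a fit over both sides, 45 to 46 Mb remained high in DP, at 2.01, but not in ES, at 0.970, and no bin was high in both. With each bin scaled to its own stretch, an alternative chosen after seeing the data, 44 to 45 Mb alone was high in both, and 45 to 46 Mb had 2.88 in DP and 1.16 in ES.

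**Figure D2:**
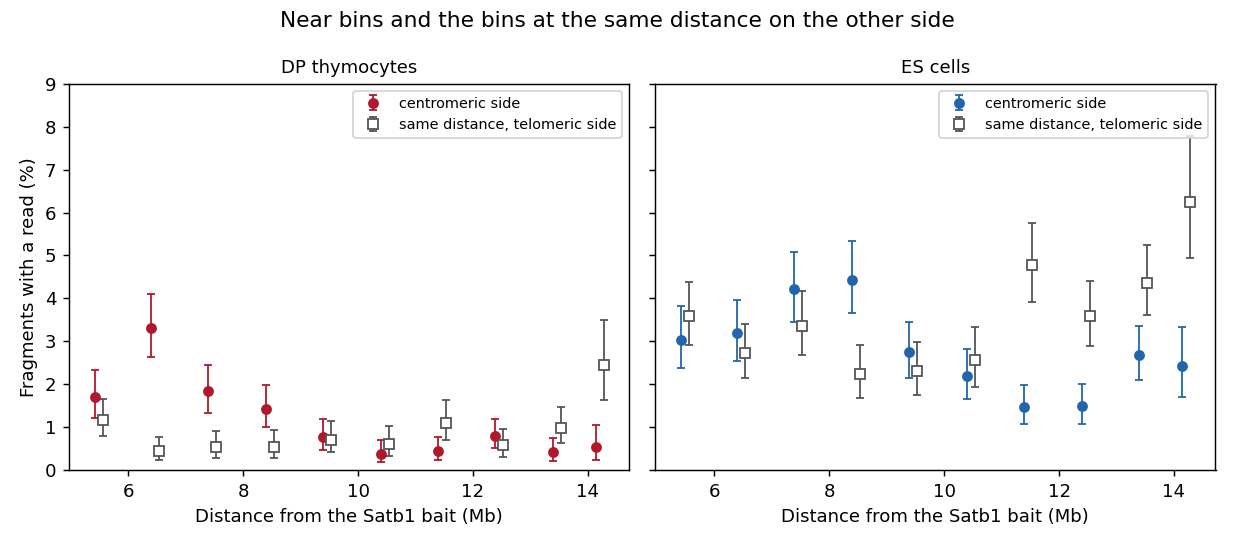
Percentage of fragments with a read, with 95% binomial intervals, in each 1 Mb bin of the near stretch (filled circles) and in the telomeric bin at the same distance in Mb (open squares), in DP thymocytes (left) and ES cells (right). In DP the centromeric bins between 6 and 9 Mb stand above their telomeric partners, by 2.61 to 7.52 times; in ES the intervals of 8.5 Mb alone are apart in that direction, and from 11 Mb outward the telomeric bins are higher.

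Genes at 44 to 47 Mb include Runx2, a transcription factor of bone formation that also acts in thymocytes, and Supt3h, which encodes a subunit of the SAGA coactivator and overlaps the start of Runx2 on the opposite strand. The body of Runx2 (44632936 to 44951746) had 22 of 735 members detected in DP (2.99%, 1.89 to 4.50) and 35 in ES (4.76%, 3.34 to 6.56). The body of Supt3h (44914101 to 45256239) had 23 of 803 members detected in DP (2.86%, 1.82 to 4.27) and 30 in ES (3.74%, 2.53 to 5.29). Their neighbour Rcan2, a regulator of calcineurin, lies in the same 1 Mb bin as Runx2 and differed between the libraries: 2 of its 591 members were detected in DP (0.338%, 0.0410 to 1.22) and 26 in ES (4.40%, 2.89 to 6.38). Clic5, between them, had 2 of 251 members in DP and 10 in ES. In steps of 100 kb, DP had 0, 1 and 1 detected members from 43.9 to 44.2 Mb, over Rcan2, and 8 and 10 from 44.7 to 44.9 Mb, within Runx2. In ES the same steps had 11, 7 and 13, and 10 and 12. The DP profile thus changed level within the bin, while the ES profile was high on both sides.

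The highest DP step of the 125 that cover the bins of these 3 classes was 45.4 to 45.5 Mb, where 15 of 232 members were detected (6.47%) and no protein-coding gene is annotated; ES had 8 there (3.45%). The gene-dense end of this bin holds Cdc5l, a splicing factor, Tcte1, Hsp90ab1, a cytosolic chaperone, Nfkbie, an inhibitor of NF-kappa B, Slc29a1, a nucleoside transporter, and Mrpl14, a mitochondrial ribosomal protein. Gene bodies of this size hold few members: Tcte1 had 5 of 48 detected in DP and 1 in ES, Slc29a1 3 of 35 and 1, and Cdc5l 3 of 110 in both. The ES maximum among these steps was 44.9 to 45 Mb, where Runx2 and Supt3h overlap, with 14 of 217 members (6.45%) against 4 in DP (1.84%).

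The bins high in DP only lay far from the bait, 20.5 to 46.5 Mb away. The strongest was 5 to 6 Mb, near the centromere, with 58 of 2085 members in DP (2.78%; scaled share 2.63, 2.01 to 3.39) and 15 in ES (0.719%; 0.544, 0.305 to 0.896). It kept its class under all 11 alternatives for which bins of these borders were classified. Long genes fill this bin, and the DP excess was seen along them. Arid1b, a subunit of the BAF chromatin remodelling complex (4994332 to 5347656), had 24 of 692 members detected in DP (3.47%, 2.23 to 5.12) and 5 in ES (0.723%, 0.235 to 1.68). Zdhhc14, a palmitoyltransferase, had 14 of 583 in DP and 3 in ES. Snx9, a sorting nexin of endocytosis, and Synj2, a phosphoinositide phosphatase, had 5 of 149 and 8 of 238 in DP against 2 each in ES. No telomeric bin lies at this distance, since the chromosome ends earlier on that side.

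At 8 to 9 Mb, 38 of 2380 members were detected in DP (scaled share 1.51, 1.07 to 2.07) and 14 in ES (0.445, 0.244 to 0.745). Pde10a, which encodes a cyclic nucleotide phosphodiesterase, begins in this bin and extends into the next; over its whole body 28 of 1110 members were detected in DP (2.52%, 1.68 to 3.63) and 7 in ES (0.631%, 0.254 to 1.30). Other genes of this bin did not share the direction: Sft2d1 had 1 of 199 members detected in DP and 3 in ES, Rnaset2a 1 of 43 in both, and Rsph3a 0 of 79 and 1. The next 3 bins of the class lie around 30 Mb. At 28 to 29 Mb the scaled share was 1.82 (1.33 to 2.43) in DP and 0.776 (0.498 to 1.15) in ES, and at 29 to 30 Mb it was 1.77 (1.29 to 2.37) and 0.836 (0.547 to 1.22). At 31 to 32 Mb it was 1.51 (1.07 to 2.06) in DP and 0.793 (0.514 to 1.17) in ES, whose intervals overlap, and this bin kept its class in 4 of 11 alternatives. The DP share at 28 to 29 Mb was 2.99 times (1.67 to 5.35) that of its telomeric partner. At 29 to 30 Mb the ratio was 1.26 (0.811 to 1.94) and at 31 to 32 Mb 1.95 (1.14 to 3.33). Far bins with a high DP share were not particular to the centromeric side. Telomeric bins 32.5 and 35.5 Mb from the bait had 3.44% and 3.62% in DP, above the 3.32% of 45 to 46 Mb.

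Genes at 28 to 32 Mb include Fkbp5, a co-chaperone of the glucocorticoid receptor, with 9 of 250 members detected in DP (3.60%, 1.66 to 6.72) and 3 in ES (1.20%, 0.248 to 3.47). Ftsjd2, an mRNA cap methyltransferase, and Rnf8, a ubiquitin ligase of the DNA damage response, overlap each other and had 7 of 349 and 6 of 193 in DP against 2 and 1 in ES. Abcg1, a cholesterol exporter, had 5 of 124 in DP and 0 in ES, where the interval reaches 2.93%. Ubash3a, a negative regulator of T cell receptor signalling, had 4 of 93 in DP and 1 in ES. The direction was not shared by every gene there: Srpk1, a kinase of splicing factors, had 2 of 83 in DP and 3 in ES, and Pde9a had 1 of 192 and 2. For the smaller genes the intervals of both libraries overlap widely.

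The bins high in ES only filled most of the rest of the near stretch, 8.46 to 14.2 Mb from the bait. At 43 to 44 Mb, 108 of 2436 members were detected in ES (4.43%; scaled share 3.36, 2.76 to 4.03), the highest bin of that profile, and 35 in DP (1.44%; 1.36, 0.949 to 1.89). At 42 to 43 Mb the scaled share was 2.08 (1.63 to 2.61) in ES and 0.732 (0.448 to 1.13) in DP, at 41 to 42 Mb 1.66 (1.26 to 2.14) and 0.364 (0.175 to 0.669), at 38 to 39 Mb 2.03 (1.60 to 2.54) and 0.412 (0.213 to 0.718), and at 37.5 to 38 Mb 1.84 (1.29 to 2.53) and 0.511 (0.221 to 1.00). In each of these bins the intervals of the libraries were apart. The bins between, 39 to 41 Mb, were close to the ES mean, at 1.13 and 1.12.

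The ES share of these bins was mostly no greater than on the other side of the bait. At 43 to 44 Mb the ES share was 1.98 times (1.43 to 2.74) that of its telomeric partner, and at 42 to 43 Mb 1.19 times (0.841 to 1.69). At 41 to 42 Mb the ratio was 0.852 (0.591 to 1.23), at 38 to 39 Mb 0.614 (0.460 to 0.820) and at 37.5 to 38 Mb 0.388 (0.263 to 0.574). Scaled to the share expected at the distance, none of these 5 bins was high in ES only, and the class then held 1 bin, 4 to 5 Mb, at 1.55. In the main scaling this bin was below the ES mean, at 0.670, with 22 of 2484 members detected (0.886%). It lies 47.5 Mb from the bait, where the telomeric side has no bin. With each bin scaled within its stretch, no bin was high in ES only.

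Genes at 42 to 44 Mb include Cyp39a1, an oxysterol hydroxylase, with 11 of 209 members detected in ES (5.26%, 2.66 to 9.22) and 4 in DP (1.91%, 0.524 to 4.83), and Tnfrsf21, a death receptor, with 8 of 176 in ES and 3 in DP. The adhesion G protein-coupled receptor Gpr116 had 10 of 171 members detected in ES (5.85%, 2.84 to 10.5) and 0 of 171 in DP, where the interval reaches 2.13%. Its relatives Gpr110, Gpr111 and Gpr115 had 7 of 133, 4 of 91 and 5 of 95 in ES against 1, 1 and 0 in DP. Cd2ap, an adaptor of the T cell adhesion molecule CD2, had 10 of 197 in ES and 5 in DP, and 3110082D06Rik had 17 of 442 and 5. Pla2g7, which encodes a phospholipase that inactivates platelet-activating factor, had 3 of 105 in both libraries. At 41 to 42 Mb the named genes are small: Mut, the methylmalonyl-CoA mutase, had 1 of 58 members detected in ES and 0 in DP, and Cenpq, a centromere protein, 2 of 21 and 0. The bins at 37.5 to 39 Mb hold olfactory receptor genes.

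**Figure D3:**
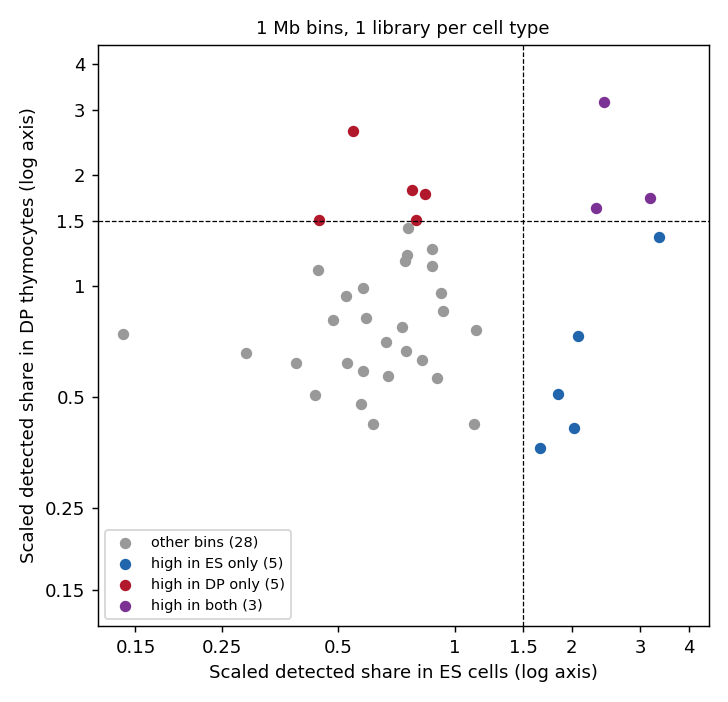
Scaled detected share of the 41 bins of 1 Mb in ES cells (horizontal, log axis) against DP thymocytes (vertical, log axis), 1 library each; colours mark the classes and dashed lines the threshold of 1.5. The 5 bins high in DP only lie at 0.836 or less in ES, and the 5 bins high in ES only lie between 0.364 and 1.36 in DP.

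In bins of 0.5 Mb, 5 of 80 were high in both libraries (6.25%), 8 in DP only (10%) and 11 in ES only (13.8%). The class of 45 to 46 Mb held in both of its 0.5 Mb parts, at 3.45 and 2.84 in DP and 2.38 and 2.45 in ES. That of 44 to 45 Mb did not: 44 to 44.5 Mb was high in ES only (1.08 in DP, 2.83 in ES) and 44.5 to 45 Mb in both (2.43 and 3.56). Nor did that of the bin nearest the bait: 46 to 46.5 Mb was high in both (1.76 and 2.36) and 46.5 to 46.962 Mb in ES only (1.48 and 2.24), and this 1 Mb bin kept its class in 6 of 11 alternatives. The part at 43 to 43.5 Mb was high in both (1.61 and 2.82) and 43.5 to 44 Mb in ES only (1.11 and 3.91, the highest of the ES profile). Both parts of 5 to 6 Mb were high in DP only, at 2.78 and 2.49 in DP and 0.519 and 0.569 in ES. At 8 to 9 Mb the class rested on 8.5 to 9 Mb (1.80 in DP, 0.564 in ES), where Pde10a begins. At 29 to 30 Mb it rested on 29.5 to 30 Mb (2.01 and 0.579), with 29 to 29.5 Mb in no class (1.53 and 1.09). At 31 to 32 Mb it rested on 31 to 31.5 Mb (1.79 and 0.685), with 31.5 to 32 Mb in no class (1.21 and 0.905). The part at 40.5 to 41 Mb was high in ES only (0.441 and 1.51), while 40 to 40.5 Mb was not (0.406 and 0.704). In DP this width added 12.5 to 13 Mb, with 1.67 in DP and 0.635 in ES, which holds the imprinted growth factor receptor gene Igf2r.

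The classes differed in base composition, which the rule did not use. Bins high in DP only had a GC content of 46.2 to 49.4% (median 49.1), those high in ES only 37.5 to 43.6% (median 38.5), and those high in both 43.6 to 49.4% (median 46.2). In the far stretch, members in bins of at least 45% GC were detected at 1.35% (1.23 to 1.47) in DP, those in bins of 40 to 45% at 0.812% (0.702 to 0.935) and those in bins under 40% at 0.644% (0.527 to 0.778). In ES the same members were detected at 0.876%, 0.838% and 0.814%, with overlapping intervals. In the near stretch the bins under 40% GC, 6 of 10, had the lowest share in both libraries: 0.566% (0.453 to 0.698) in DP and 2.13% (1.91 to 2.37) in ES, against 2.53% (2.11 to 3.02) and 3.12% (2.65 to 3.65) in the 2 bins of at least 45%. In the 2 bins of 40 to 45% the share was 1.63% (1.30 to 2.03) in DP and 4.32% (3.77 to 4.93) in ES, where it was the highest of the 3 classes.

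Across the 41 bins, the correlation of the scaled share with GC content was 0.577 (Pearson) and 0.704 (Spearman) in DP, and -0.08 and -0.06 in ES. With distance from the bait it was -0.18 and -0.12 in DP, and -0.78 and -0.83 in ES. Gene starts per Mb had correlations close to 0, at 0.07 and 0.19 in DP and -0.01 and 0.05 in ES. Between the DP and ES profiles it was 0.291 and 0.152. Within the 10 bins of the near stretch, the correlation with GC content was 0.811 and 0.721 in DP and 0.638 and 0.794 in ES, and that with distance was -0.78 and -0.75 in DP and -0.60 and -0.68 in ES. Within the 31 bins of the far stretch, that with GC content was 0.572 and 0.661 in DP and 0.163 and 0.154 in ES, and that with distance -0.11 and -0.22 in DP and -0.59 and -0.61 in ES. The libraries thus differed in their relation to GC content in the far stretch. In the near stretch both correlated with it, as they did with distance and with the share of unique ends given below. These values describe the bins of 1 library each, which share depth and lie next to each other, and have no test. The share of members with a unique end ranged from 37.2% to 98.4% over bins, and its correlation with the DP share was 0.519 and with the ES share 0.240 (Pearson). Within the near stretch it was 0.758 in DP and 0.892 in ES (Pearson), in ES above the 0.638 of GC content. Of members with a unique end 1.24% were detected in DP and 1.60% in ES, and of the 19845 without, 0.297% and 0.212%. When members without a unique end were left out, 5 to 6 Mb had 2.33 in DP and 45 to 46 Mb had 2.88 in DP and 2.19 in ES. The correlation with GC content was then 0.560 (Pearson) and 0.687 (Spearman) in DP, and -0.23 and -0.17 in ES. Within the near stretch it was then 0.772 and 0.758 in DP, and 0.439 and 0.648 in ES.

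**Figure D4:**
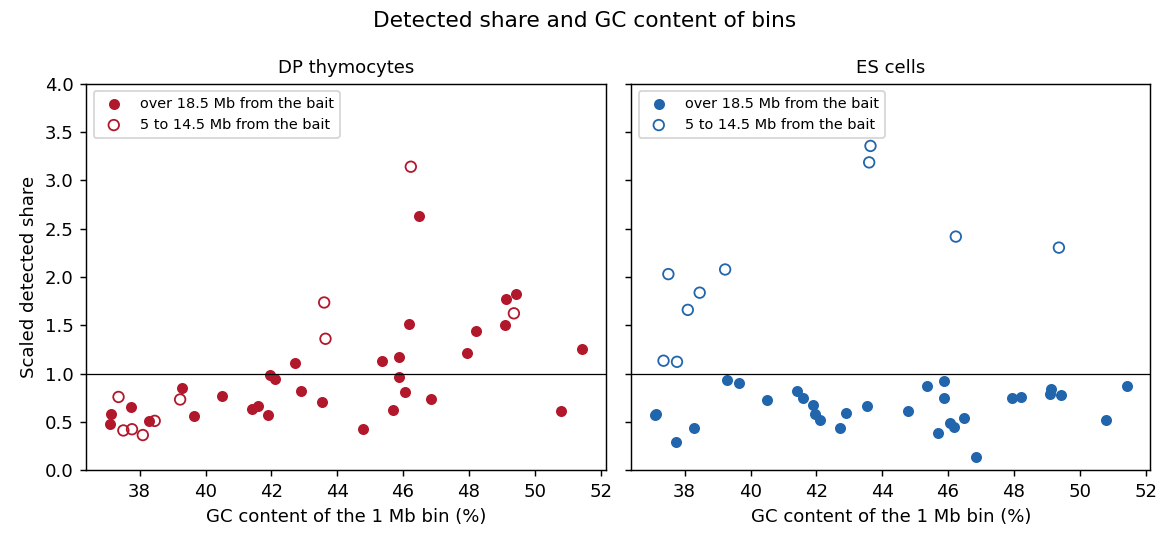
Scaled detected share of each 1 Mb bin against its GC content in percent, in DP thymocytes (left) and ES cells (right), with filled points for bins over 18.5 Mb from the bait and open points for nearer bins. In DP the bins over 1.5 all have a GC content of at least 43.6%; in ES all near bins, at 1.12 or more, lie above all far bins, at 0.929 or less.

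For genes, the scaled share was taken in a window of 0.5 Mb centred on each of the 589 protein-coding genes of the centromeric side. Neighbouring genes share most of their window, so that genes are not independent. A high window need not include a detected member in the gene itself. Of the genes named below, Pim1 (12 members), T (16) and Rpl10a (4) had none in either library. A scaled share of at least 1.5 was found in DP for 136 genes (23.1%) and in ES for 108 (18.3%), and 48 genes were in both sets, 35.3% of the DP set and 44.4% of the ES set. All 108 ES genes were among the 118 of the near stretch, while in the far stretch 88 of 471 genes had such a window in DP and 0 in ES, where the highest value was 1.33. The median over all 589 genes was 1.00 in DP and 0.741 in ES.

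Of 21 genes with known roles in T cells, 9 had a high window in DP and 4 in ES, with medians of 1.41 and 1.00. Those high in DP included the far genes Fkbp5 (2.26 in DP, 1.16 in ES), Pim1, a cytokine-induced kinase (2.05 and 0.567), Ubash3a (1.62 and 0.646), Mapk14, the p38 alpha kinase (1.61 and 0.967), Itpr3, a calcium channel (1.57 and 0.566), and Cdkn1a, a cell cycle inhibitor (1.53 and 1.09). The near genes Runx2 (2.34 and 3.61), Nfkbie (2.90 and 2.38) and Tnfrsf21 (1.74 and 2.78) were high in both, and Cd2ap (1.35 and 2.51) in ES. These 4 are all the list genes of the near stretch, where 108 of 118 genes had a high ES window. Over all genes, 23.1% had a high window in DP and 18.3% in ES. Not every T cell gene had a window over the mean in DP: that of Tagap, a GTPase activator, was at 0.827 in DP and 0.264 in ES.

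Lists with other roles were read in the same way. Of 11 genes of the early embryo 7 had a high window in DP and 3 in ES, with medians of 1.66 and 0.653. Among those high in DP were Cdc5l (3.28 and 2.13), Arid1b (2.90 and 0.449), Tead3, a transcription factor of the Hippo pathway (2.27 and 1.04), T, the mesoderm factor Brachyury (2.19 and 0.563), and Vegfa, the endothelial growth factor (2.11 and 2.47). Others lay below the mean in DP: Dll1 (0.408 and 0.718), Sox8 (0.691 and 0.613) and Qk (0.899 and 0.653). Of 20 housekeeping genes 7 had a high window in DP and 7 in ES, with medians of 1.37 and 0.708; Hsp90ab1 had 2.997 and 2.33, and Rpl10a, a ribosomal protein, 2.46 and 1.05. Housekeeping genes below the mean in DP included Sod2 (0.622 and 0.311) and Ppp2r1a (0.569 in both). Over all genes, 23.1% had a high window in DP and 18.3% in ES. All 3 lists had more genes with a higher window in DP than in ES, 15 of 21, 8 of 11 and 15 of 20, as did all genes, 376 of 589. The early embryo and housekeeping genes high in ES, 3 and 7, were all the genes of these lists in the near stretch.

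Clustered gene families were taken by symbol. The 50 Vmn and Fpr genes, vomeronasal and formyl peptide receptors, had no high window in either library, with medians of 0.630 in DP and 0.596 in ES. Of the 36 olfactory receptor genes 0 had a high window in DP and 33 in ES, with medians of 0.475 and 1.72. These 33 are all the olfactory receptor genes of the near stretch, where 108 of 118 genes had a high ES window. At a threshold of 2, none of the 36 had a high window in ES. The 37 zinc finger genes had medians of 0.802 and 0.777, with 3 high windows in DP and 1 in ES.

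**Figure D5:**
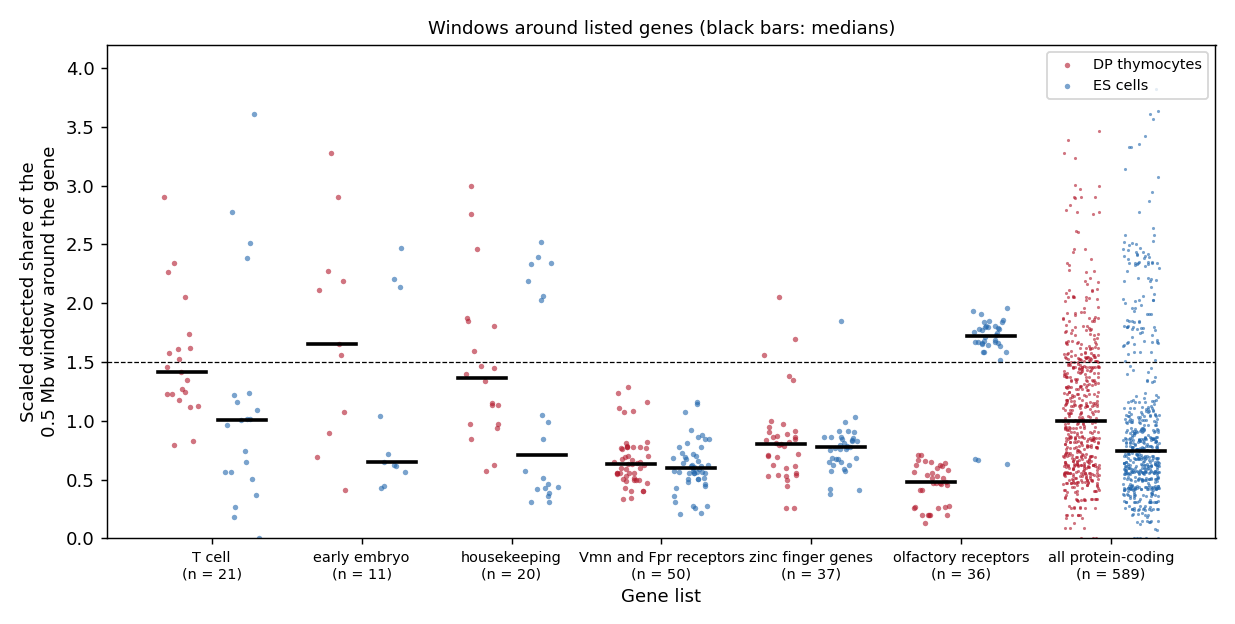
Scaled detected share of the 0.5 Mb window around each gene (points; vertical axis), by gene list (horizontal axis), in DP thymocytes (red) and ES cells (blue), with black bars at the medians and a dashed line at 1.5. The olfactory receptor genes lie between 0.135 and 0.713 in DP and between 0.637 and 1.956 in ES, with medians of 0.475 and 1.72.

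Single fragments were rarely shared. Only 36 members were detected in both libraries, 3.41% of those of DP and 2.73% of those of ES, against 1.32% of all members detected in ES and 1.06% in DP. Of these 36, 23 had under 5 reads in at least 1 library and 8 had at least 20 in both. In DP 2.84% of the detected members had a neighbouring fragment that was also detected, and in ES 5.37%. Each fragment has 2 neighbours, and 1.06% of all members were detected in DP and 1.32% in ES. Some detected neighbours are thus found without clustering, which was not tested. Of the 36, 83.3% had a unique end, against 94.8% of members detected in DP alone and 97.2% in ES alone. At 45 to 46 Mb, 81 of 2442 members were detected in DP (3.32%) and 78 in ES (3.19%), and 5 were detected in both. At 19 to 20 Mb, which was in no class, 17 were detected in DP and 21 in ES, and also 5 in both. At shares this low most detected fragments differ between 2 libraries in any bin, and the overlap was not tested.

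The members detected in 1 library alone were longer than those without a read, with medians of 326 bp in DP, 368 bp in ES and 261 bp without a read. More of them had a Csp6I site, 51.0% and 53.1% against 44.2%. Of members detected in DP alone 50.5% lay in a gene, of those in ES alone 40.9%, and of those without a read 39.7%. Their median GC content was 45.04%, 42.99% and 43.5%. The member with the most reads in DP lay in an intron of Runx2, with 1078 reads and 0 in ES. The one with the most in ES, 1962 reads and 0 in DP, lay 12.5 kb from Ppp2r1a, and its end sequences occur 4 and 449 times among DpnII ends, so that its place is uncertain.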

How the data were processed

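The authors cut the bait sequence off each read, aligned the 26 nt left to mm9 (the submitters' processing notes list Bowtie 1.0.0 and bcl2fastq) and deposited raw counts of reads for every DpnII fragment of chromosome 17; their user guide leaves out fragments with a large share of all reads. How reads with several matches were placed is not given in the sources used here. No normalization or removal of PCR copies was applied to them. Of the 6 libraries, the 4 from other baits or cells were not used here.

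All 229546 deposited midpoints matched a DpnII fragment of mm9 (NCBIM37), and genes are those of GENCODE vM1. Members and gene lists were chosen with earlier results of these data known. Detected shares, scaled shares, intervals and correlations were computed in Python 3.11.15 (numpy 2.4.6, pandas 2.3.3, scipy 1.17.1, scikit-learn 1.9.0), after the script was tested on simulated data. Named are the listed genes and, per high bin, up to 6 genes with the most detected members; genes with the most reads and 12.5 to 13 Mb fall outside this rule. With 1 library per cell type no test was possible. Alternatives changed the minimum reads (2 or 5), the fragments counted, the measure, the scaling, the bins and the threshold. Repeat content was not analysed here.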

Additional observations from a re-analysis of the deposited data

How the results depend on the processing

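No paired analysis was possible because each cell type has 1 library. Of 63 recomputed values for the main results, 52 kept their direction and lay within the limits set for a move. The ratio of ES to DP turned to 0.865 with capped mean reads. The number of bins high in both, 3, became 0 with the share expected at the distance, 1 at a threshold of 2, and 1 when scaled within each stretch. Bins high in DP only, 5, became 1 at a threshold of 2. Bins high in ES only, 5, became 1 with the expected share and 0 within each stretch. The scaled share of 45 to 46 Mb became 2.01 (expected share) and 2.31 (shifted bins) in DP, and 0.970 (expected share) and 1.16 (within its stretch) in ES. In the last 2 settings the scaling itself takes up the higher ES share near the bait. Of 36 recomputed counts of listed genes in high windows, 28 lay within 1.5 times the value reported and 8 did not, among them the T cell genes in DP (9, and 4 at a threshold of 2), the housekeeping genes in DP (7, and 11 at the lowest threshold tried or 3 at 2) and the olfactory receptor genes in ES (33, and 0 at 2). A bin holds few detected members, 4 to 108 in ES and 8 to 81 in DP, which limits single bins and genes, and the spread between replicate libraries is unknown.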
